A study of Mus musculus with 8 samples.

Results

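The miR-290 to miR-295 cluster was examined as an interval of mouse chromosome 7 from 3260000 to 3275000 (GRCm39), the locus of the primary transcript that carries the microRNAs Mir290a, Mir291a, Mir292a, Mir293, Mir294 and Mir295. Its members were the deposited eCLIP peaks that overlapped this interval by at least 1 bp. They numbered 2 of 72953 peaks in all, 1 in each del-cIDR list and 0 in each full-length list. The interval was selected on the presence, width and rank of peaks in these same lists, so those values are described there and not tested.

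The study used eCLIP to find RNA bound by ALKBH5, a demethylase that erases N6-methyladenosine from RNA. In eCLIP, UV light fixes a protein to the RNA in contact with it, and the pair is then pulled down with an antibody. One set of cells carried Alkbh5 del-cIDR, a form of the endogenous gene whose protein lacks the C-terminal intrinsically disordered region. They were set against wild-type (WT) cells with full-length ALKBH5, called FL in the labels. Both were E14TG2a mouse embryonic stem cells grown with LIF and the inhibitors PD0325901 and CHIR99021, and the RNA came from isolated nuclei. Each genotype had 2 immunoprecipitates and 2 inputs, 8 samples in all, and the lists of the 4 immunoprecipitates were used here. The labels do not say if the del-cIDR cells are 1 clone or if replicates were separate cultures, so p-values cover the spread between samples alone, which may be technical. The del-cIDR lists held 17584 and 18841 peaks and the full-length lists 19892 and 16636. The number of reads behind a list is unknown, so a missing peak means only that none was listed.

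The microRNAs named above, all on the plus strand, are cut from 1 nuclear primary transcript by the Microprocessor, the complex of Drosha and Dgcr8. The released hairpins are trimmed by Dicer in the cytoplasm. The cluster is a leading source of microRNAs in mouse embryonic stem cells and is known for keeping these cells in rapid division through repression of cell cycle inhibitors such as Cdkn1a. Bases 2 to 8 of a mature microRNA, the seed, decide most of its target pairing.

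The mature sequences below are shown because they define the cluster, with the seed in capitals. They come from RefSeq (GRCm38.p6, chromosome 7, plus strand), in which all 6 members were matched, Mir292a under the symbol Mir292. First come the 3p forms.
miR-290a-3p: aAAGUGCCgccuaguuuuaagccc
miR-291a-3p: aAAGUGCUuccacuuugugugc
miR-293-3p: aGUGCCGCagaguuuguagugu
miR-294-3p: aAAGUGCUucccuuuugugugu
miR-295-3p: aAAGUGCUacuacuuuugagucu

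The forms from the other arm follow.
miR-290a-5p: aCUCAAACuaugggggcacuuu
miR-291a-5p: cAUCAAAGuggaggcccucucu
miR-292a-5p: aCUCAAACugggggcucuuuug
miR-293-5p: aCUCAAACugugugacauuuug
miR-294-5p: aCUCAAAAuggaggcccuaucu
miR-295-5p: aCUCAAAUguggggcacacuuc

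The seed AAGUGCU was shared by miR-291a-3p, miR-294-3p and miR-295-3p, and 5 of the 1738 mouse mature microRNAs in the table carried it. The seed of miR-290a-3p was AAGUGCC, which differs in its last base, and that of miR-293-3p was GUGCCGC. On the other arm CUCAAAC was shared by miR-290a-5p, miR-292a-5p and miR-293-5p and by no other microRNA of the table. The table also lists Mir291b (plus strand), and Mir290b and Mir292b, which lie on the minus strand. The core AAGUGC stood in the seed of 5 of the cluster's 17 mature forms in the table, which leave out miR-292a-3p. In the whole table it stood in 16 of 1738 (0.921%), these 5 included. The core was picked to describe these seeds, so the contrast is not a test.

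Of the 9 genes, 7 lie on the plus strand and 2 on the minus strand. The hairpins of Mir290a and Mir290b are shown with their mature forms in capitals because they are read from opposite strands of the same stretch. The deposited peaks carry no strand, so their RNA cannot be told apart in these lists.
Mir290a: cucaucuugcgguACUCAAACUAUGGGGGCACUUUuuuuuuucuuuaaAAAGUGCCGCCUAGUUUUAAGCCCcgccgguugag
Mir290b: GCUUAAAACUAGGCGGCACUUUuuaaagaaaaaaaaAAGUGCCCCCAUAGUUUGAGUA

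In GRCm38.p6 the 9 hairpins spanned 2216 bp from the first to the last. The lncRNA D7Ertd143e (2232 bp long, plus strand) and the protein-coding gene Nlrp12 (minus strand), which encodes an innate immune receptor, overlap them. AU018091 was the nearest protein-coding gene before the cluster. An annotation of GRCm39 was not used here, so positions within a peak were not matched to single hairpins, and no peak was assigned to 1 of these genes.

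Del-cIDR ALKBH5 had 1 broad peak in the interval in each replicate, and no full-length peak was listed there. In del-cIDR replicate 1 the peak spanned chromosome 7 from 3266714 to 3269752, a width of 3039 bp. In del-cIDR replicate 2 it spanned 3266705 to 3269746, a width of 3042 bp. The starts were 9 bp apart and the ends 6 bp apart. The replicates shared 3033 of 3048 bases, a Jaccard index of 0.995. The width averaged 3040.5 ± 2.12 bp in del-cIDR cells (SD, n = 2), and the peak covered 20.3% of the interval in both lists. Covered length in the full-length lists was 0 and 0 bp. The peak lay well inside the interval, with 6705 bp free before it and 5248 bp after it.

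**Figure D1:**
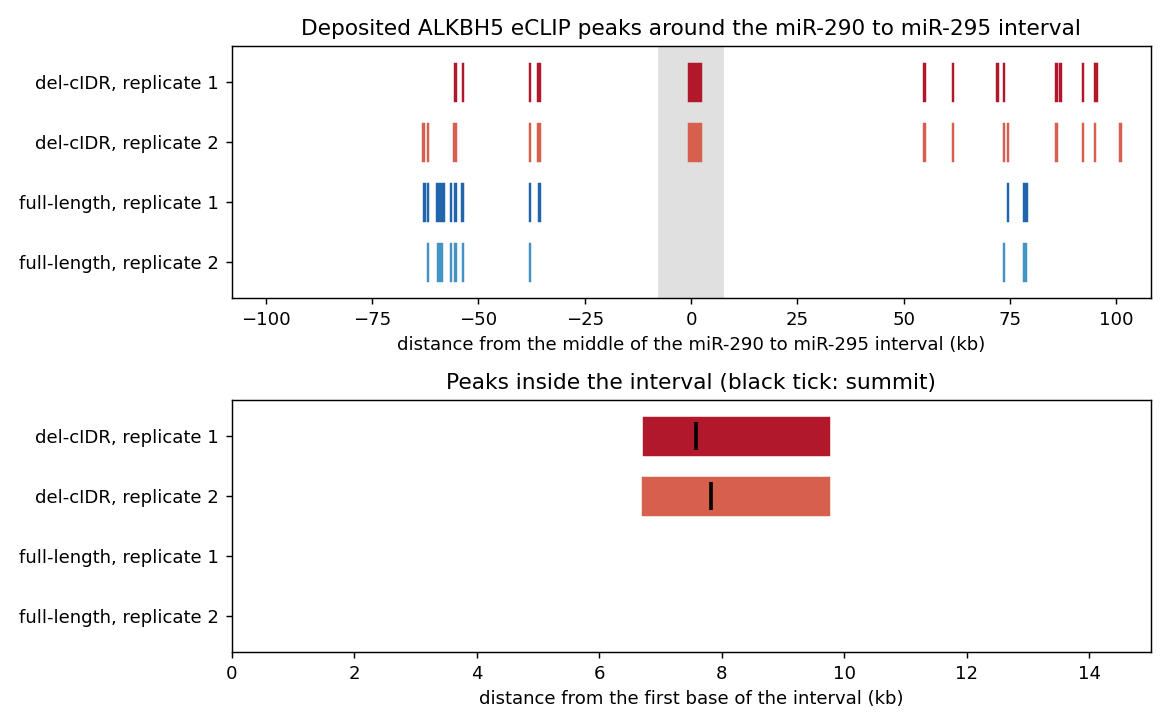
Deposited peaks in the 4 libraries, with the distance from the middle of the interval in kb on the x axis (upper panel, interval shaded) and the distance from its first base in kb (lower panel, summits as black ticks). Both del-cIDR replicates show 1 peak of 3039 and 3042 bp with nearly the same ends, and the full-length rows are empty inside the interval.

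The ends of the peak were closer between replicates than its summit. The summit lay at 3267582 in del-cIDR replicate 1 and at 3267823 in replicate 2, which is 241 bp apart. It was 868 and 1118 bp from the start of the peak, and 2170 and 1923 bp from its end. Thus both summits stood in the lower-coordinate part of the peak, at 28.6% and 36.8% of its width. A list gives 1 summit per peak, so further maxima within the 3 kb are not visible in these data.

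The fold enrichment of the peak, a ratio over the peak caller's background, was moderate while its −log10 q was among the highest of the list. These are the authors' values for each peak and serve here to describe it within its own list. Fold enrichment was 3.08 and 3.52 in the del-cIDR replicates. The median peak of those lists had 3.17 and 3.16, so the cluster peak was near the middle by this value, at rank 9293 and 7454. With peaks under 4-fold left out, 0 peaks remained in the interval in either del-cIDR list. The −log10 q was 691 and 792, against a list median of 10.3 and 9.91. By −log10 q the peak ranked 208 of 17584 and 190 of 18841, within the top 1.18% and 1.01%.

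Few peaks combined such a −log10 q with so low a fold. Of the peaks ranked above it by −log10 q, 9 of 207 and 10 of 189 had a fold enrichment as low or lower. Those ranked above it had a median fold of 27.1 and 27.0 and a median width of 301 and 302 bp. Among the 4317 and 4713 peaks with a fold from 3 to below 4, it ranked 6 by −log10 q in both lists. On chromosome 7 it ranked 13 of 1247 and 9 of 1385 by −log10 q and was the widest peak in both lists. At a fixed fold, a peak caller's q falls as the reads at the summit rise. What set this value, RNA abundance included, was not tested.

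**Figure D2:**
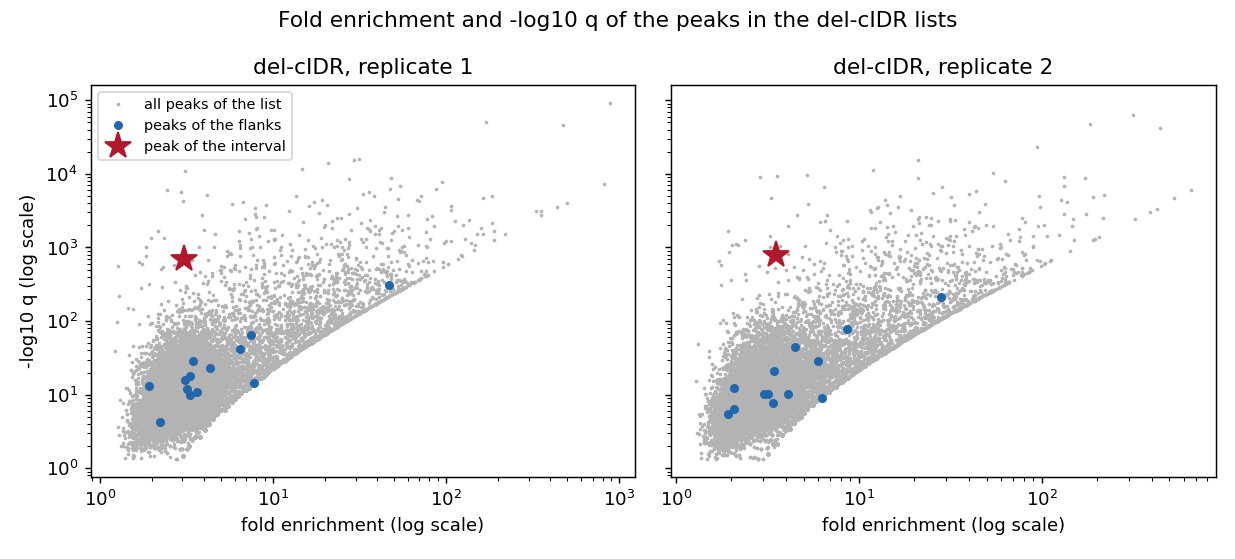
Fold enrichment (x axis, log scale) against −log10 q (y axis, log scale) of every peak in the 2 del-cIDR lists, in grey, with the peaks of the 100 kb flanks in blue and the cluster peak as a red star. The star stands at a fold of 3.08 and 3.52 and a −log10 q of 691 and 792, far above most peaks of the same fold.

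The peak was also unlike most of its list in width. It was 9.35 and 9.19 times as wide as the median del-cIDR peak, which measured 325 and 331 bp, and ranked 3 by width in both lists. Widths of at least 2 kb were reached by 16 and 26 del-cIDR peaks, and among these it ranked 2 by −log10 q in both replicates. The wide peak with a higher −log10 q lay on chromosome 19 from 5845871 to 5848340 in replicate 1, with 3.01-fold enrichment, and also had no full-length peak. In replicate 1, 2 peaks were wider than the cluster peak. The first lay on chromosome 19 from 5892075 to 5895393, the other between 86454658 and 86457820 of chromosome 1, and full-length peaks overlapped both. In replicate 2 the 2 wider peaks lay on chromosome 19 from 5892087 to 5895350, with full-length peaks, and on chromosome 12, where the peak from 109688745 to 109692520 had none.

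Of all del-cIDR peaks, 75.8% and 75.7% had no full-length peak, so a missing full-length peak is the usual case in these lists. No full-length peak overlapped 12 of the 16 and 18 of the 26 peaks of 2 kb or wider, the cluster peak included. Of the peaks ranked above it by −log10 q, 190 of 207 (91.8%) and 170 of 189 (89.9%) did overlap a full-length peak. Those found in both del-cIDR lists and in neither full-length list numbered 15 of 207 and 17 of 189. Over the genome, with overlapping peaks of the 4 lists merged, 7609 of 43029 regions (17.7%) were of this kind. The share among all del-cIDR peaks was not computed. These shares are descriptions and were not tested, since the interval was chosen for its pattern.

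**Figure D3:**
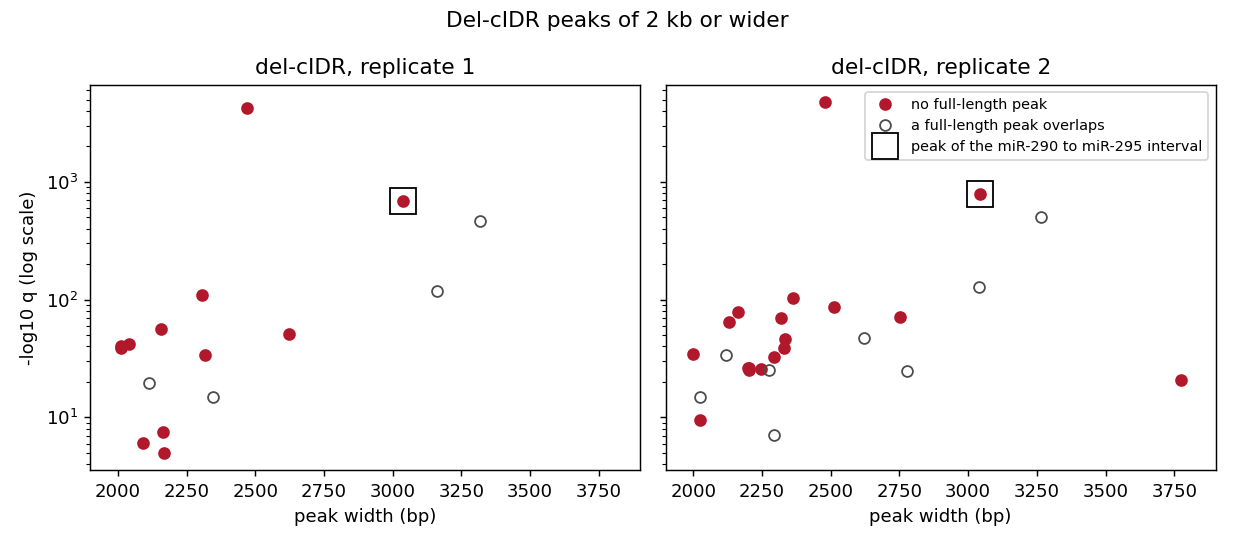
Width in bp (x axis) and −log10 q (y axis, log scale) of the 16 and 26 del-cIDR peaks of 2 kb or wider, filled where no full-length peak overlapped. The boxed cluster peak is the second highest by −log10 q in each replicate and 1 of the 12 and 18 filled points.

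The genome-wide background for such a difference is high. When the genome was divided into 15 kb tiles from the start of the interval, 23222 tiles held a peak in any library. Covered bases in both del-cIDR lists exceeded those in both full-length lists in 7942 tiles (34.2%), and the reverse held in 4740 (20.4%). The interval was among the tiles with more del-cIDR bases. The choice of the interval used that contrast, so nothing is read from its membership. A stricter set of 5004 tiles lacked any full-length peak and had peaks of both del-cIDR replicates. Their median was 349.5 covered bases, and the cluster tile, with 3040.5, ranked 33 among them. Of the 3556 tiles of the opposite kind, with peaks in both full-length lists and in no del-cIDR list, 396 had at least as many covered bases. The lists differ in total peak length, which bears on this comparison. It was 12.3 Mb in full-length replicate 1 and 7.63 Mb in replicate 2, against 7.09 and 7.89 Mb in the del-cIDR lists.

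The cluster peak stood alone in the del-cIDR lists and fell in a longer gap in the full-length lists. Measured from the 3048 bp that both replicates' peaks span together, the nearest del-cIDR peaks at lower coordinates ended 34839 and 34782 bp away, and those at higher coordinates began 52370 and 52369 bp away. In full-length replicate 1 the gap between the neighbouring peaks ran from 3231925 to 3341754, or 109.8 kb. In full-length replicate 2 it ran from 3229595 to 3340821, or 111.2 kb. Without the cluster peak, the del-cIDR lists would have had gaps of 90.3 and 90.2 kb there.

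The 100 kb on each side, taken as the setting, ran against the interval at lower coordinates and the same way as the interval at higher coordinates. At lower coordinates there were 4 and 5 peaks in the del-cIDR replicates, against 8 and 6 in the full-length replicates. At higher coordinates there were 9 and 8 del-cIDR peaks, against 2 and 2 full-length peaks. The genotypes thus did not overlap on either side, in opposite directions. Such a split is common over the genome. Among 50 kb tiles with a peak, covered bases were higher in both del-cIDR lists in 38.8% and in both full-length lists in 20.4%. The share was not computed for 100 kb windows or for peak number, so the split is not read as particular to this locus. Over both sides the mean was 13.0 ± 0 peaks in del-cIDR and 9.0 ± 1.41 in full-length lists (SD, n = 2 per genotype, two-sided exact permutation p = 0.333). That p is the smallest that 2 against 2 allows, and it was 0.4 after Benjamini-Hochberg adjustment over 6 comparisons of number and covered length on each side and on both. With 50 kb on each side the mean number was 4.5 in both genotypes.

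Covered length over both sides averaged 4841.5 ± 12.0 bp in del-cIDR and 4856.5 ± 1653 bp in full-length lists (SD, n = 2 per genotype, two-sided exact permutation p = 1). The difference of -15 bp was within the spread of the full-length replicates and turned positive without full-length replicate 1, at 1153.5 bp. By side, del-cIDR covered 1726 and 2142 bp, against 4779 and 2663 bp in full-length, at lower coordinates. At higher coordinates it covered 3124 and 2691 bp, against 1246 and 1025 bp. Each side gave a two-sided exact permutation p of 0.333 with 2 replicates per genotype. The 3040.5 bp of the cluster peak thus compared with a mean of 4841.5 bp of del-cIDR peaks over the surrounding 200 kb.

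**Figure D4:**
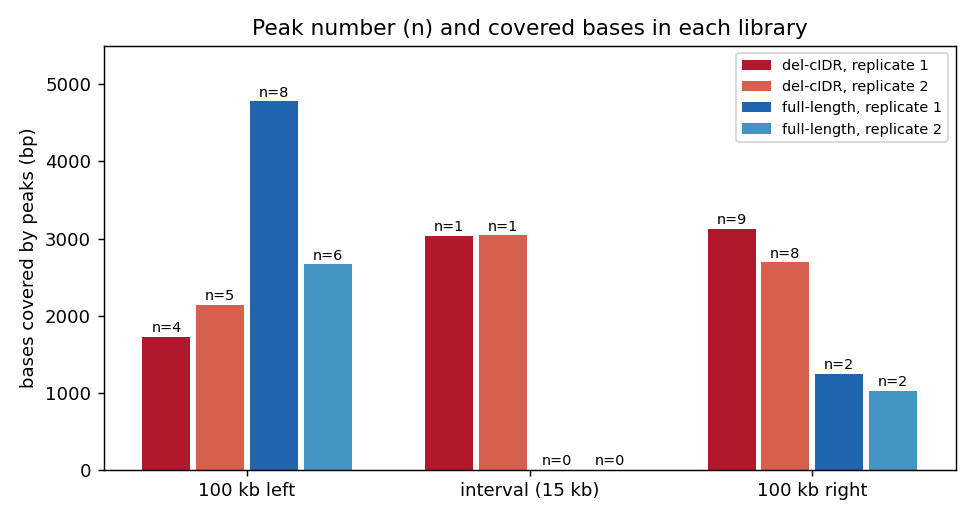
Bases covered by peaks (y axis, bp) in the interval and in the 100 kb on its left (lower coordinates) and right (higher coordinates), 1 bar per library with its peak number above it. The del-cIDR bars are the lower ones on the left, the sole ones in the interval at 3039 and 3042 bp, and the higher ones on the right.

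No del-cIDR peak of the flanks came near the cluster peak in width. Flank peaks ranged from 300.0 to 598 bp in the del-cIDR lists and from 243 to 1783 bp in the full-length lists. Peaks of the 4 lists were merged where they overlapped, and a peak without overlap counted as a region. The flanks held 8 such regions at lower and 12 at higher coordinates. Of the 12, 4 held a peak in a single library. At lower coordinates, 2 of 8 had a peak in both full-length lists alone and 0 in both del-cIDR lists alone. At higher coordinates, 1 of 12 was of the first kind and 5 of 12 of the second. Over the genome, 17.5% of 43029 regions were of the first kind and 17.7% of the second.

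The best ranked flank peak of both del-cIDR lists was a narrow site shared by all 4 libraries, from 3229296 to 3229595 in replicate 1. Its fold enrichment was 46.8 and 28.3 in the del-cIDR replicates and 7.89 and 6.74 in the full-length replicates. It ranked 466 and 616 in the del-cIDR lists, below the cluster peak despite the higher fold, and 6472 and 4268 in the full-length lists. A second region of all 4 libraries, from 3211637 to 3212228, had 3.46 and 4.51-fold enrichment in del-cIDR and 2.71 and 3.14-fold in full-length replicates. ALKBH5 peaks were thus listed within 100 kb of the cluster in both genotypes.

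Other flank regions were shared in part. The region from 3231268 to 3231925 held a peak of each del-cIDR replicate, at 3.33 and 3.05-fold, and in full-length replicate 1 at 4.07-fold. That from 3205324 to 3205721 held them in del-cIDR replicate 2 at 2.07-fold and in both full-length lists at 2.38-fold. That from 3213457 to 3213953 gave the best ranked flank peak of full-length replicate 1 below the interval, with 1.93-fold enrichment in del-cIDR replicate 1 and 4.53 and 2.37-fold in the full-length replicates. At 3340763 to 3341063 lay the best ranked del-cIDR peak at higher coordinates, with 7.51 and 8.64-fold enrichment in del-cIDR and 2.77-fold in full-length replicate 2. The regions from 3204300 to 3205030 and from 3341734 to 3342071 held a peak in del-cIDR replicate 2 and full-length replicate 1.

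Another 8 flank regions held peaks of both replicates of 1 genotype alone. The 3 full-length regions were from 3207518 to 3209300, with 3.35 and 3.50-fold enrichment, from 3210819 to 3211133, with 3.17 and 3.79-fold, and from 3345450 to 3346398, with 2.92 and 2.40-fold. They were 1783, 315 and 949 bp wide. The first held the best ranked flank peak of full-length replicate 2. The third held the best ranked full-length peak at higher coordinates in both replicates. The 5 del-cIDR regions were 301 to 563 bp wide. They ran from 3322122 to 3322423, with 6.43 and 5.997-fold enrichment, from 3328825 to 3329125, with 7.76 and 6.26-fold, and from 3352969 to 3353531, with 3.66 and 3.41-fold. The others ran from 3359355 to 3359729, with 2.24 and 3.19-fold, and from 3362176 to 3362499, with 3.13 and 2.09-fold. By −log10 q these ranked from 2358 to 15576 in their lists, all behind the cluster peak.

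GGACU, a common form of the sequence context in which N6-methyladenosine is placed, was looked for in the 8 hairpins of the cluster that the table holds, because ALKBH5 removes this mark. The hairpin of Mir291a was missing there and was not searched. The motif was found in the Mir295 hairpin alone of the 8, starting at base 30, in the loop between the mature forms (in capitals).
Mir295: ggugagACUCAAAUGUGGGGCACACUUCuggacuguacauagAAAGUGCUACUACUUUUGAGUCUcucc
The opposite strand of the 8 hairpins held none. Among the 588 mouse hairpins of 58 to 84 bases, 8.33% held it on their own strand and 5.44% on the other, so 1 of 8 is no more than a description. The primary transcript outside the hairpins was not searched.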

How the data were processed

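Peaks of the 4 immunoprecipitates were deposited by the authors as 1 list per replicate, and cutadapt, STAR, UMI-tools and MACS2 with GRCm39 are named, per the submitters' processing notes. Settings and versions were not given in the sources used here, nor was any use of the inputs as control. The deposited values are a fold enrichment (ratio), −log10 p, −log10 q and a score, which is the −log10 q times a constant. The lowest deposited −log10 q was 1.31 to 1.34. Read depth is unknown, and no peak carried a strand. Lists named wt were taken as full-length and those named KI as del-cIDR, the other genotype.

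With Python 3.11.15, pandas 2.3.3 and scipy 1.17.1, positions were written 1-based, covered bases were clipped to each interval, and peaks were ranked within lists by −log10 q. Flanks were compared with a two-sided exact permutation test. Tiles and region merging were tested on simulated lists. The interval, the members and the lists were chosen with earlier results of these data known. All peaks of the interval were named, and in the flanks the best ranked peak per side and library and every region of 2 or more libraries. Planned counts of peaks over listed genes and stem cell markers needed GRCm39 gene positions and were not run, so the cell type was not checked. The 2 kb limit, the fold range of 3 to 4 and the GGACU search were chosen after the data were seen.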

Additional observations from a re-analysis of the deposited data

How the results depend on the processing

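The cluster peak kept its number, width and place under 10 of 11 alternatives. These were a −log10 q of at least 5, equal list lengths (16636 peaks), joining within 100 bp, and membership by summit or by 50% of the peak. The rest were an interval wider by 5 kb on each side, and each replicate left out. Most of these outcomes were fixed by the peak's −log10 q of 691 and 792 and its place well inside the interval. They are therefore no test of the peak. Without 1 replicate its number stayed 1, its covered length and widest peak were 3039 to 3042 bp and its rank 190 to 208. With peaks of at least 4-fold enrichment it was lost in both del-cIDR lists (0 peaks, 0 bp covered, widest 0 bp), since both peaks lie under that fold. Ranked by fold enrichment its mean rank was 8373.5 in place of 199. A reciprocal overlap of 50% still matched the 2 del-cIDR peaks. With peaks of at least 4-fold, 3683 tiles were higher in del-cIDR and 2584 in full-length, of 12730 with a peak (28.9% and 20.3%). Over the other alternatives these shares were 29.5 to 38.8% and 20.4 to 21.4%. The flank peak number differed by 3 to 5 without 1 replicate, by 0 with flanks of 50 kb and by 10 with 200 kb. The flank covered length ran from -1183.5 to 1153.5 bp without 1 replicate, and turned positive at 1096.5 bp with 4-fold peaks, 29.5 bp with joined peaks, 262 bp with 50 kb and 2515 bp with 200 kb, so its direction is not settled. With the replicate block the differences were 4 peaks (exact sign-flip p = 0.5, the smallest possible) and -15 bp (p = 1), and the replicate numbers share only a number. Read depth, which is unknown, limits what a missing peak can mean.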
